A study of Mus musculus with 77 samples.

Results

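The genes described here are 7 transcripts of the erythroid lineage that were measured in mouse blood: Alas2, Fech, Slc4a1, Epb42, Ank1, Sptb and Bpgm. They were taken by gene symbol from the blood mRNA table, which holds 13084 genes, and all 7 were present there. Red cells lose their nucleus before they enter the circulation, and the youngest of them, the reticulocytes, still carry messenger RNA for a short time. Heme synthesis in erythroid cells begins in the mitochondria with the aminolevulinate synthase Alas2. It also ends there, with the ferrochelatase Fech, which inserts the iron. Slc4a1 is the anion exchanger of the red cell membrane, Epb42 and Ank1 attach it to the membrane skeleton, Sptb is a spectrin chain of that skeleton, and Bpgm makes bisphosphoglycerate, which lowers the affinity of hemoglobin for oxygen.

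The blood was trunk blood of male C57BL/6Crl (B6) and DBA/2Crl (D2) mice that were 8 weeks old at dissection, 6 to 8 days after the last session of chronic social defeat stress (CSDS). There were 5 mice in each of 5 groups: B6 controls, B6 resilient, B6 susceptible, D2 controls and D2 susceptible mice. Controls were housed with a same-strain mouse behind a divider and never met an aggressor. Defeated mice were named susceptible where their social interaction ratio fell more than 1 SD below the mean of same-strain controls, and resilient otherwise. For sequencing the authors chose the extremes, resilient mice of highest ratio and susceptible mice of lowest ratio, and controls near the mean. The labels give no D2 resilient blood sample, and both phenotypes are behavioral labels of defeated mice. Globin and ribosomal transcripts had been depleted from every library, and reads of both strains were aligned to GRCm38, the reference genome of the B6 strain. The labels name no cell sort, so the RNA is that of whole blood, and fewer cells of a type and less RNA per cell cannot be told apart.

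The label and the data column of 2 D2 mice give opposite phenotypes. D2 control mouse 2 by its label carries the column name of a susceptible mouse, and D2 susceptible mouse 2 carries that of a control. The labels were used for the groups, and results on the 7 genes in D2 mice are also given with the groups of the column names and without both mice. All names of B6 mice begin with EC3 or EC4 and all names of D2 mice with ED3, ED4 or ED6, and the sources used here do not say what these prefixes record. Strain and prefix therefore cannot be told apart. Recovered reads per blood mRNA library ranged from 9751603 to 15878495, with a median of 13290205. The deposited values are log2 CPM, read counts relative to library size on a log2 scale. The library size behind them is an effective one that was between 0.644 and 1.53 times the recovered reads.

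The 7 genes together took between 7.31% and 15.2% of all recovered reads of a mouse, and Alas2 alone took between 6.33% and 12.6%. Alas2 was the most or the second most abundant gene in each of the 25 libraries. In shares of reads, the median over the 7 genes together was 11.8% in B6 controls, 13.5% in B6 resilient mice, 11.8% in B6 susceptible mice, 9.14% in D2 controls and 9.84% in D2 susceptible mice. The ranges of these 5 groups overlapped. No member was near the detection limit, since the fewest reads of any of them in any mouse were 1392, for Ank1.

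Levels of different genes were compared per kilobase of merged annotated exons. In B6 controls, Alas2 stood highest at 15.29 ± 0.29 log2 CPM per kb (SD, n = 5), followed by Bpgm at 11.66 ± 0.30, Fech at 8.96 ± 0.26 and Slc4a1 at 8.68 ± 0.29. Epb42 (6.19 ± 0.40), Sptb (4.27 ± 0.28) and Ank1 (3.36 ± 0.17) stood lower on the same scale. Fech and Slc4a1 were neighbours whose ranges overlapped in each of the 5 groups, while Alas2 and Bpgm were separated from each other and from Fech in all 5. In D2 controls the order of Sptb (5.01 ± 0.76) and Epb42 (4.95 ± 0.75) was exchanged, with overlapping ranges.

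**Figure D1:**
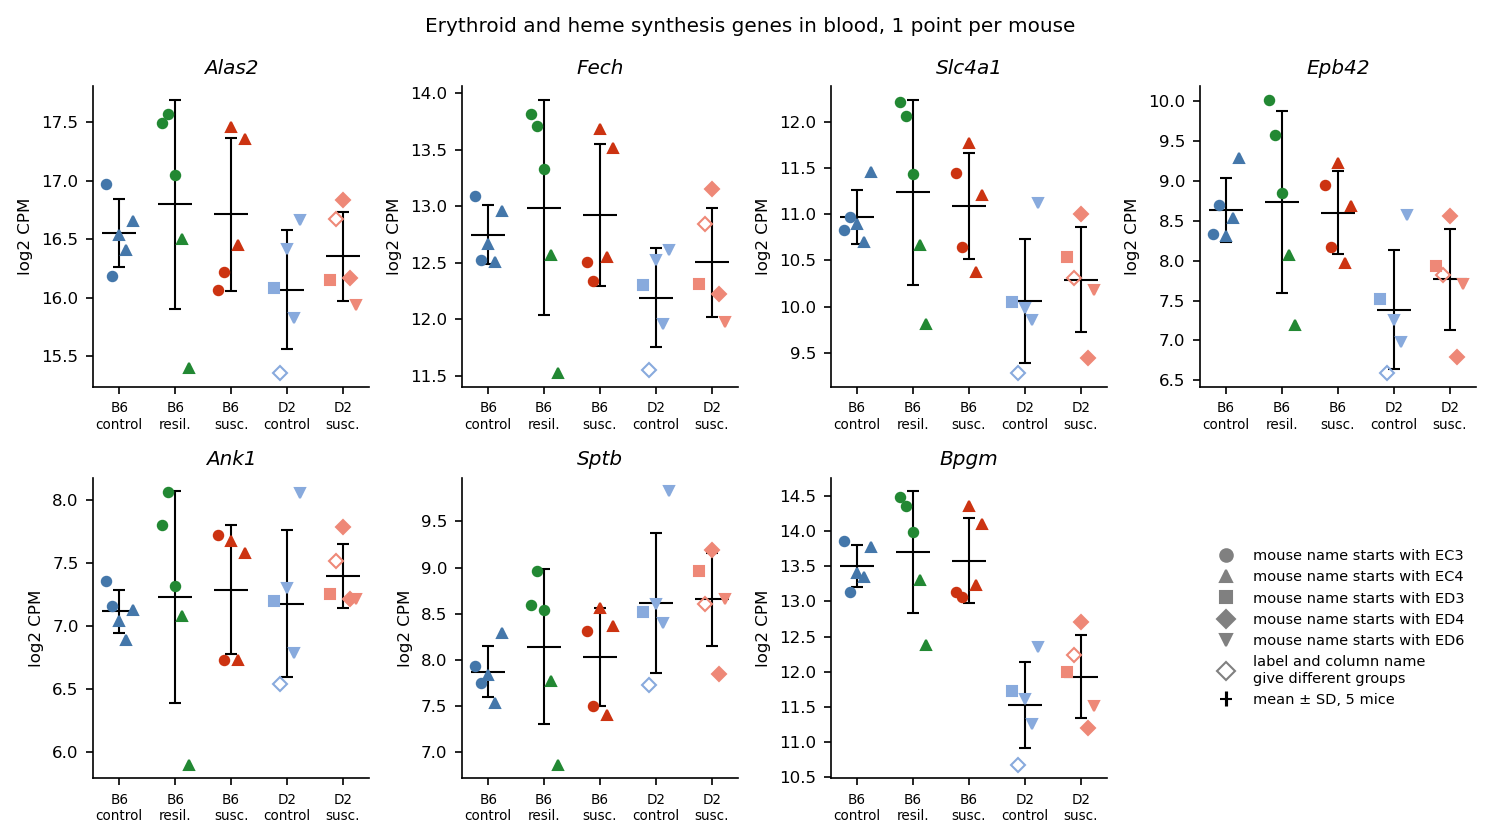
Level of each of the 7 genes in log2 CPM on the vertical axis for 5 blood groups on the horizontal axis, with 1 point per mouse, its shape giving the prefix of the mouse name, and lines for the mean ± SD of 5 mice. Bpgm is the gene whose B6 controls, 13.13 to 13.85, all lie above the D2 controls, 10.68 to 12.35, and open points mark the 2 D2 mice whose label and column name disagree.

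Promoter sequence was examined for 4 of the 7 genes (Alas2, Bpgm, Epb42 and Sptb, from RefSeq on GRCm38.p6), as the 250 bases before the RefSeq start. In GENCODE, the annotation used for gene positions, Alas2, Bpgm and Epb42 start upstream of the RefSeq start, inside their windows. Part of each of these windows thus lies within the annotated gene. The promoters of Fech, Slc4a1 and Ank1 were not examined. Alas2, the most abundant member, and Bpgm, the member with the largest strain difference, are shown. Capitals mark the motif AGATAA or its reverse complement TTATCT, the core to which GATA factors bind, and CACCC or its reverse complement GGGTG, the core to which erythroid Krüppel-like factors bind. The Alas2 window is chrX:150547167-150547416 on the plus strand and the Bpgm window is chr6:34476106-34476355 on the plus strand.
Alas2: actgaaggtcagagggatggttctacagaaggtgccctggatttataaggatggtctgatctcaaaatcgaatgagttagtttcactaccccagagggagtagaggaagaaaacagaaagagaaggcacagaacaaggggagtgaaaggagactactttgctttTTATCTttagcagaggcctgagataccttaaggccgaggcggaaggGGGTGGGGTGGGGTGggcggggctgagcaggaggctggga
Bpgm: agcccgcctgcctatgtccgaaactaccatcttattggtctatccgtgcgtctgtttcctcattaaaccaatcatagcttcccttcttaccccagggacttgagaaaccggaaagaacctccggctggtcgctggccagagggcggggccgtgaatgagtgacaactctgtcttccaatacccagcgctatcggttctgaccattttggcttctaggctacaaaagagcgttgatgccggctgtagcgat

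The Alas2 window held TTATCT with its first base at -86 and GGGTG at -40, -35 and -30, counted from the start. The Epb42 window held TTATCT at -226 and the Sptb window held CACCC at -95, and neither motif was in the Bpgm window. Over 32851 promoter windows of the same length, AGATAA on either strand was in 9.99% and CACCC on either strand in 52.0%. A match of letters is a description and does not show that a factor binds there.

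The members went up and down together from mouse to mouse. After removal of group means, the Pearson correlation over the 25 mice was between 0.75 (Alas2 with Epb42) and 0.98 (Slc4a1 with Epb42) for the 21 pairs of members, with a median of 0.87. Alas2, Fech and Bpgm were closest to each other, at 0.95 to 0.98, and Slc4a1, Epb42 and Sptb formed a tight group at 0.93 to 0.98. These points share the scaling of each library. The mean of the 7 genes had a correlation of -0.95 with the log2 ratio of effective library size to recovered reads, so the mice with high values were those whose values had been scaled up most. It also had a correlation of 0.83 with the log2 share of recovered reads on the 7 genes, which no scaling enters. Level and share are made from the same reads of the same genes, so part of this correlation is built in. When the reads were scaled instead to the sum of reads outside the erythroid lists, the correlations of pairs fell to a lowest value of 0.48 and a median of 0.74.

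**Figure D2:**
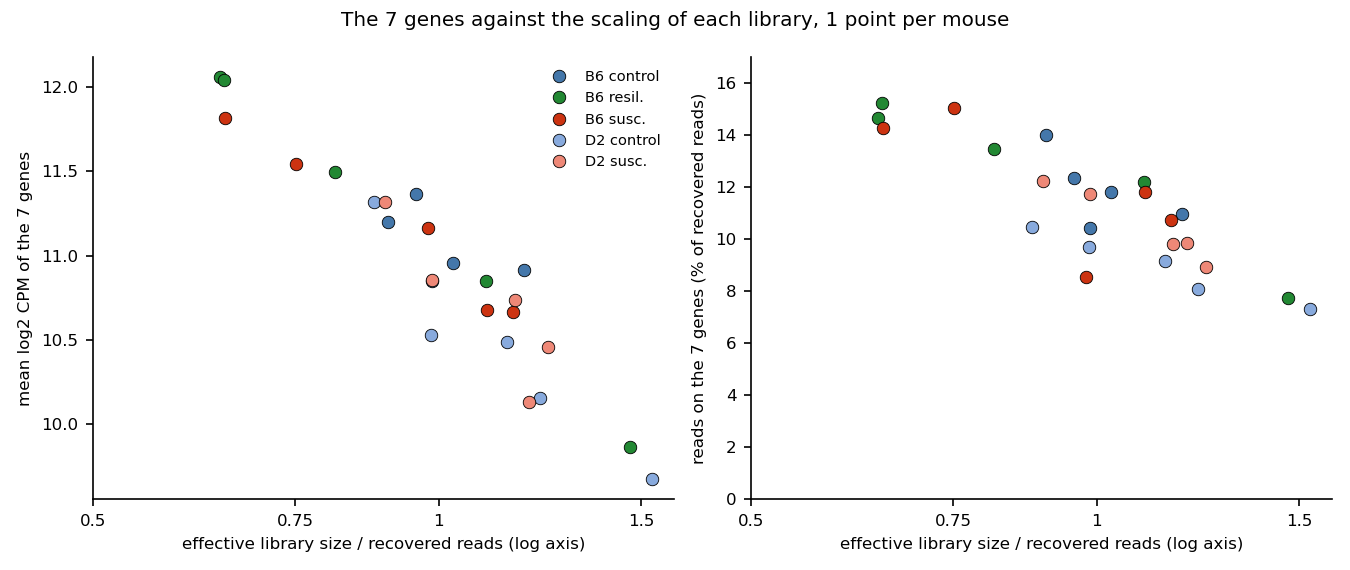
The horizontal axis of both plots gives the ratio of effective library size to recovered reads on a log scale, and the vertical axis gives the mean log2 CPM of the 7 genes (left) or their percentage of recovered reads (right), with 1 point per mouse coloured by group. The left plot falls along a line with a correlation of -0.95 after removal of group means, and on the right, where no scaling enters the vertical axis, the share runs from 7.31% to 15.2% and, on a log2 scale, has a correlation of 0.83 with the mean level.

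Of the genes outside the list, the 10 with the deviations most like the mean of the members had correlations of 0.98 to 0.99 over the same 25 mice, and 426 genes of the table reached 0.9. Wdr26 came first at 0.99. Add2, the beta chain of adducin, a protein that caps actin in the red cell membrane skeleton, was the only one of the 10 that is on a list of erythroid genes used here, and its correlation was 0.98. The others were Smap1, Slc25a51, Pabpc4, Fzr1, Fn3krp, Specc1, Spop and March5. These correlations are a description of mice that share the scaling of their libraries.

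The first question was whether erythroid transcripts differ in B6 mice after CSDS. None of the 7 genes was called (limma p under 0.05 with a fold of 1.2 or more) in B6 resilient mice against controls, where 2.11% of the 13084 genes were called and no gene had an adjusted p under 0.05 (290 genes had an unadjusted limma p under 0.05). The means of all 7 were higher in resilient mice, by 0.11 (Epb42) to 0.27 (Sptb) on the log2 scale with a median of 0.24, against a median of 0.02 over all genes. Adjusted limma p-values of the 7 were 0.985 to 0.992, and the ranges of the groups overlapped for each of them.

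Alas2 in the B6 controls was at 16.98, 16.19, 16.54, 16.41 and 16.66 log2 CPM. In the B6 resilient mice it was at 17.49, 17.57, 17.05, 16.50 and 15.40. The resilient mice lay both above and below the range of the controls, and their SD was 0.89 against 0.29 in controls. Bpgm was at 14.48, 14.35, 13.98, 13.30 and 12.39 in the resilient mice, again with the 3 highest values in the same 3 animals. Those 3 animals were the resilient mice whose names begin with EC3. Within that prefix the resilient mice were higher than the controls for all 7 genes, by 0.47 (Ank1) to 1.00 (Slc4a1), and among the EC4 mice they were lower for all 7, with differences of -0.53 (Ank1) to -1.08 (Epb42). With 2 or 3 mice per group and prefix, no test was made within a prefix.

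Directions also moved with the scaling. With values scaled to the total of recovered reads, the median over all genes shifted to -0.16, and 5 of the 7 members were higher in B6 resilient mice with a median of 0.05. After quantile normalization 3 of 7 were higher and the median was -0.02. Leaving out resilient mouse 1 gave 5 of 7 members above controls with a median of 0.02, and leaving out resilient mouse 2 gave 5 of 7 with a median of 0.06. Leaving out resilient mouse 5, the lowest of the group, gave 7 of 7 with a median of 0.59. None of these settings called a member.

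In B6 susceptible mice against controls, none of the 7 genes was called, where 4.5% of all genes were and 0 passed an adjusted limma p under 0.05 (610 had an unadjusted p under 0.05). Mean differences ran from -0.03 for Epb42 to 0.17 for Ank1 with a median of 0.16, against 0.02 over all genes. Alas2 in susceptible mice was at 16.07, 16.22, 17.46, 16.46 and 17.35 log2 CPM. Bpgm was at 13.14, 13.07, 14.36, 13.23 and 14.10 in the same order. Susceptible mice 3 and 5, both with EC4 names, were the high ones for Alas2, Bpgm and Fech, and the ranges of the 2 groups overlapped for every member. The 95% interval of the difference was -0.82 to 0.98 for Bpgm and -0.47 to 0.81 for Ank1, so changes of that size in either direction were not detectable with 5 mice a group. For Alas2 the fit gave a larger SE of 0.99, the same for any pair of blood groups. Without the mean-variance trend of the fit, its SE between the control groups of the strains was 0.355, against 0.376 for Bpgm. With the trend, changes of Alas2 were thus still harder to detect in each comparison. Under scaling to total reads, which put the median over all genes at -0.13, 4 of 7 members were higher and their median was 0.01. After quantile normalization and with sample weights 3 of 7 were higher and the median was -0.00. Without susceptible mouse 3 the median was -0.03 with 2 of 7 higher, and without susceptible mouse 5 it was 0.02 with 4 of 7. Without susceptible mouse 2 or 4 all 7 were higher, with medians of 0.28 and 0.26, and it was 0.08 without control 4 and 0.09 without susceptible mouse 1.

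Susceptible and resilient B6 mice did not differ by the test for any of the 7 genes either, with 2.03% of all genes called and 0 at an adjusted limma p under 0.05 (283 at an unadjusted p under 0.05). Differences were between -0.15 and 0.06, and 1 of 7, Ank1, was higher in susceptible mice, with a median of -0.11. Single mice set this direction. The median was -0.44 with 0 of 7 higher without resilient mouse 5, -0.27 with 0 of 7 without susceptible mouse 3, 0.09 with 6 of 7 without resilient mouse 1 and 0.09 with 7 of 7 without resilient mouse 2. It was 0.02 with 5 of 7 higher without susceptible mouse 2 or 4, -0.21 without resilient mouse 4, -0.20 without susceptible mouse 5, -0.03 without resilient mouse 3 and -0.05 without susceptible mouse 1. The prefixes again went opposite ways. The difference in Alas2, susceptible minus resilient, was -1.22 among EC3 names and 1.14 among EC4 names, and all 7 genes showed this change of sign. These 3 comparisons of B6 mice share animals, so their values are not independent of each other.

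**Figure D3:**
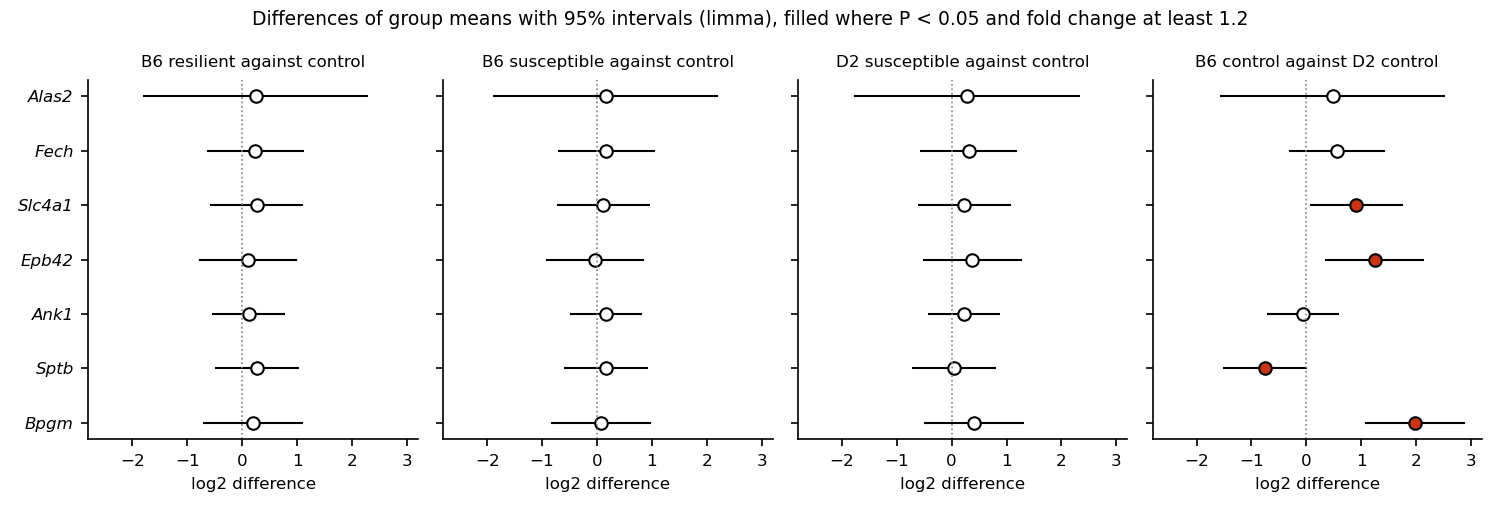
Log2 difference between group means on the horizontal axis for each of the 7 genes on the vertical axis, in 4 comparisons of 5 against 5 mice, with 95% intervals from limma and filled points where the gene was called. No point is filled in the 3 stress comparisons, and Slc4a1, Epb42, Sptb and Bpgm are filled between the control groups of the strains.

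In D2 susceptible mice against D2 controls by the labels, 0 of 7 genes were called, with 1.57% of all genes called and 0 at an adjusted limma p under 0.05 (225 at an unadjusted p under 0.05). Of all 13084 genes, 206 were called by the labels, 890 with the column names and 519 without the 2 mice in question. No member was called under any of these groupings. By the labels all 7 means were higher in susceptible mice, by 0.04 (Sptb) to 0.41 (Bpgm) with a median of 0.28, against -0.02 over all genes. With the groups of the column names all 7 were lower, with a median of -0.20 and Bpgm at -0.21. Without the 2 mice, 6 of 7 were higher and the median was 0.03. The direction in D2 mice thus rested on the group of 2 mice. The number of genes that the authors report for this comparison at the same threshold is nearest to that of the column names. Which grouping is right was not tested. By the labels, with a single mouse left out, 6 or 7 of the 7 were higher and the median ran from 0.10 (without D2 control 2) to 0.44 (without D2 control 5), with 0.15 without susceptible mouse 3. Scaled to total reads, 6 of 7 were higher by the labels.

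Alas2 in D2 controls was at 16.09, 15.36, 16.42, 15.83 and 16.67 log2 CPM. In D2 susceptible mice it was at 16.15, 16.67, 16.84, 16.17 and 15.94. The second value of each group belongs to the mouse in question, which was the lowest of the controls and the second highest of the susceptible mice. The prefixes ED3 and ED6 hold a single susceptible mouse each and ED4 a single control, so no value within a prefix is given. The difference between the strains in the effect of CSDS was tested directly in the same fit and no member was called, with 5.37% of all genes called and 0 at an adjusted limma p under 0.05 (704 at an unadjusted p under 0.05). It ran from -0.41 (Epb42) to 0.12 (Sptb) by the labels, with a median of -0.12 and with adjusted limma p-values that all rounded to 1.00. With the column names all 7 differences were above 0, from 0.08 to 0.47 with a median of 0.34, and without both mice 5 of 7 were, with a median of 0.10. The direction of this difference therefore also rested on the group of 2 mice. Of all genes, 703 were called for it by the labels, 1321 with the column names and 1070 without both mice. With the labels and a single mouse left out, the median ran from -0.31 (without B6 susceptible mouse 3) to 0.05 (without D2 control 2), and it was above 0 also without D2 susceptible mouse 3 (0.02).

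Between the control mice of the strains, 4 of the 7 genes were called, where 26.4% of all 13084 genes were. Bpgm, Epb42 and Slc4a1 were higher in B6 controls and Sptb was lower. At an adjusted limma p under 0.05, which 15.5% of all genes reached, Bpgm and Epb42 remained. Alas2, Fech and Ank1 were not called. The median difference of the 7 genes was 0.56, against -0.01 over all genes.

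Bpgm (ENSMUSG00000038871, GRCm38 chromosome 6, 34476207 to 34505613, plus strand) was at 13.85, 13.13, 13.40, 13.35 and 13.77 log2 CPM in B6 controls. In D2 controls it was at 11.72, 10.68, 11.61, 11.26 and 12.35. Every B6 control lay above every D2 control, which 12.0% of all genes showed in either direction. The difference was 1.98 ± 0.44 (SE), a 3.94-fold higher level in B6, with an adjusted limma p of 0.00206 and a two-sided exact permutation p of 0.00794, the smallest that 5 against 5 mice can give. As a share of recovered reads, Bpgm ranged from 1.03% to 1.34% in B6 controls and from 0.252% to 0.457% in D2 controls. The difference was 1.67 with the groups of the column names and 1.77 without the 2 mice, and neither grouping brought an overlap. The D2 susceptible mice, at 12.00, 12.23, 12.70, 11.21 and 11.52, also lay below all B6 controls and below all B6 susceptible mice, which had 13.07 or more. Against the B6 resilient mice they overlapped, because resilient mouse 5 was at 12.39.

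Epb42 (ENSMUSG00000023216, chromosome 2, 121017891 to 121037072, minus strand) was at 8.33, 8.70, 8.31, 8.53 and 9.29 log2 CPM in B6 controls. In D2 controls it was at 7.52, 6.59, 7.26, 6.99 and 8.57. The highest D2 control, mouse 5, overlapped with the B6 range and the other 4 lay below it. The difference was 1.25 ± 0.43, with an adjusted limma p of 0.0482 and an exact permutation p of 0.0317. It stayed called with the column names (1.00) and without the 2 mice (1.05), but its adjusted limma p was then 0.113 and 0.125.

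Slc4a1 (ENSMUSG00000006574, chromosome 11, 102348824 to 102366203, minus strand) was at 10.83, 10.97, 10.89, 10.70 and 11.46 log2 CPM in B6 controls. The D2 controls were at 10.05, 9.28, 9.98, 9.86 and 11.13, where again mouse 5 was the one inside the B6 range. The difference of 0.91 ± 0.40 had an unadjusted limma p of 0.0325 and an adjusted limma p of 0.138. It was no longer called with the column names (0.70), without the 2 mice (0.71), without B6 control 5 (0.79), or without D2 control 2 (0.71), 3 (0.89) or 4 (0.86).

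Sptb (ENSMUSG00000021061, chromosome 12, 76580488 to 76710547, minus strand) went the other way. It was at 7.93, 7.74, 7.84, 7.53 and 8.29 log2 CPM in B6 controls and at 8.51, 7.73, 8.60, 8.40 and 9.83 in D2 controls. The D2 control in question, at 7.73, was the only one that fell within the B6 range. The difference of -0.75 ± 0.36 had an unadjusted limma p of 0.0499, an adjusted limma p of 0.184 and an exact permutation p of 0.0556. With the column names it was -0.92 and without the 2 mice -0.97, in both cases without overlap and with an exact permutation p of 0.00794, the smallest possible. By the labels the call was lost without any single one of B6 controls 1 to 4 (-0.66 to -0.76), of D2 controls 1, 3 and 4 (-0.75 to -0.80) or of D2 control 5 (-0.44). It was also lost when scaled by the median ratio (-0.73), after a filter on mean log2 CPM, and without a mean-variance trend.

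Alas2 (ENSMUSG00000025270, chromosome X, 150547375 to 150570638, plus strand) had a difference of 0.48 with a 95% interval of -1.55 to 2.52 and an exact permutation p of 0.119. The moderated fit gave it an SE of 0.99, above the SD within the control groups (0.29 in B6 and 0.51 in D2). Without the mean-variance trend its unadjusted limma p was 0.188. Fech (ENSMUSG00000024588, chromosome 18, 64452914 to 64490251, minus strand) was at 12.50 to 13.09 log2 CPM in B6 controls and at 11.55 to 12.62 in D2 controls. Its difference of 0.56 had an adjusted limma p of 0.435 and an exact permutation p of 0.0397, and it was called when values were scaled to total reads (0.39) or to reads outside the erythroid lists (0.51). Ank1 (ENSMUSG00000031543, chromosome 8, 22974844 to 23150497, plus strand) was the nearest to equal, at -0.06 with a 95% interval of -0.70 to 0.58. With the column names and without both mice the differences were 0.22 and 0.30 for Alas2, 0.30 and 0.40 for Fech, and -0.26 and -0.22 for Ank1, none of them called.

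The reads of each gene were also divided by the Alas2 reads of the same library, a ratio that no scaling changes. This measure was chosen after the data had been seen. Of 30 exact permutation tests (6 genes in 5 comparisons), 2 reached the smallest possible p of 0.00794, both between the control groups, and the Benjamini-Hochberg value over the 30 tests was 0.119 for both. Neither result therefore passed the correction. Bpgm relative to Alas2 had a mean of -3.05 ± 0.10 in B6 controls and of -4.55 ± 0.21 in D2 controls on the log2 scale (SD, n = 5), at -3.13 to -2.89 against -4.81 to -4.32. Sptb relative to Alas2 was lower in B6 controls, with a difference of -1.23, at -9.04 to -8.37 against -7.82 to -6.84.

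Neither range overlapped, by the labels or under either other grouping of the D2 mice. In those groupings the difference was 1.45 and 1.46 for Bpgm and -1.14 and -1.27 for Sptb. Ank1 relative to Alas2 was lower in B6 controls, with a difference of -0.54 (exact permutation p of 0.0238, adjusted 0.238) and Epb42 was 0.77 higher (exact permutation p of 0.0476, adjusted 0.357). With the column names and without both mice these differences were -0.48 and -0.52 for Ank1, and 0.78 and 0.75 for Epb42. Fech kept the closest ratio to Alas2 across the strains, with a difference of 0.08. In the stress comparisons the ratios differed by -0.24 (Sptb in D2) to 0.15 (Ank1 in susceptible against resilient B6 mice), and no exact permutation p was under 0.278. Under the other groupings of the D2 mice, the D2 ratios differed by -0.20 (Sptb) to 0.14 (Epb42).

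**Figure D4:**
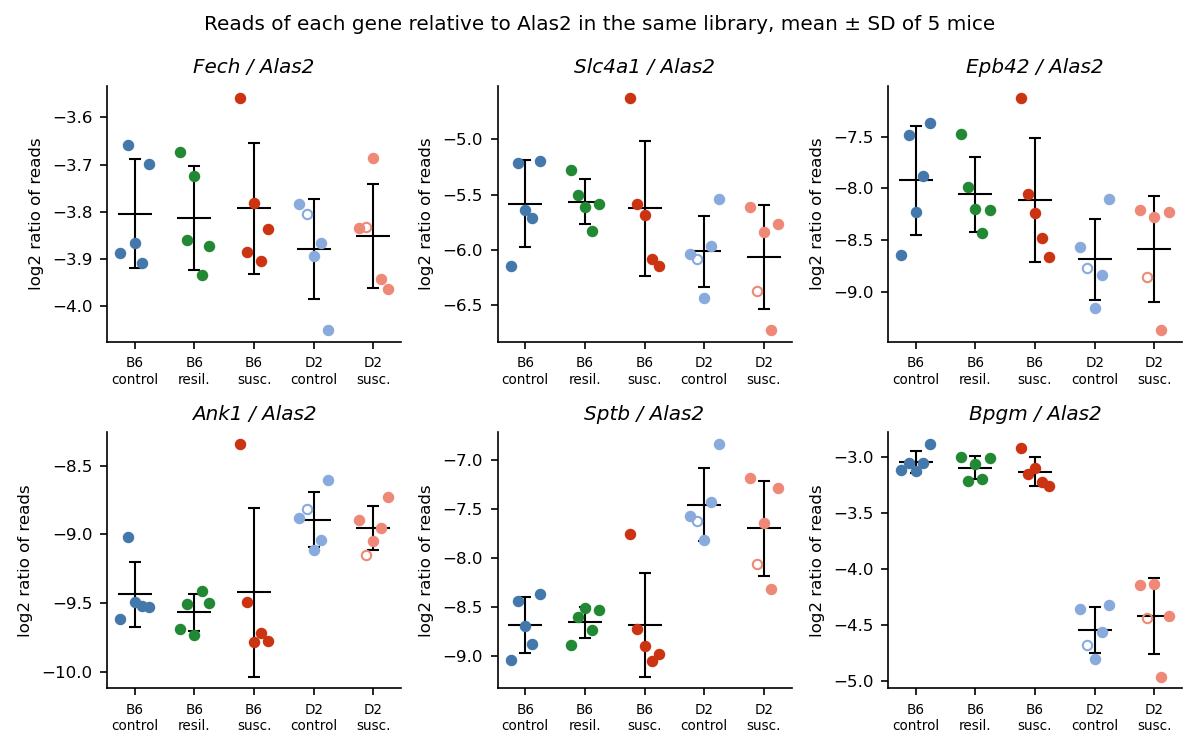
Log2 ratio of the reads of each of 6 genes to the Alas2 reads of the same library on the vertical axis for the 5 blood groups on the horizontal axis, with 1 point per mouse, open points for the 2 D2 mice in question, and lines for the mean ± SD of 5 mice. The Bpgm ratio of all B6 controls lies above, and the Sptb ratio of all B6 controls below, that of every D2 control.

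Around the 7 genes, 6 further lists of erythroid genes were examined in the strain comparison, in which 3454 of all 13084 genes (26.4%) were called, 1494 of them higher in B6. Of 22 genes of heme synthesis and iron handling, 6 were called higher and 4 lower in B6 controls, with a median difference of -0.01, equal to that of all genes. Alad, the enzyme that follows Alas2 in heme synthesis, was lower in B6 (-2.57, adjusted limma p of 5.43e-08), and so were Steap3, the ferrireductase of erythroid endosomes (-2.30), and Slc25a38, a mitochondrial carrier that brings glycine to heme synthesis (-1.29). Tspo2, an erythroid protein of the translocator family, was higher by 2.89. None of these 4 genes overlapped between the control groups, as was so for 12.0% of all genes. They were named for the smallest p in the same mice, so the lack of overlap adds no support.

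Of 25 genes of the red cell membrane, 5 were called higher and 8 lower, with a median of -0.12. Ermap (-1.89), Xk (-1.55) and the urea transporter Slc14a1 (-1.29) were lower in B6 controls, and Mpp1, a scaffold protein of the membrane skeleton, was higher by 1.96. Of 15 transcription factors and cofactors, 2 were called higher and 6 lower, with a median of -0.39. Tal1 (-1.50), Bach1, a repressor that is released by heme (-0.75), and Klf3 (-0.64) were lower, while Lmo2 was higher by 1.30.

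Of 23 measured genes of late red cell maturation, 9 were called higher and 2 lower in B6 controls, with a median of 0.71. The ubiquitin-conjugating enzymes Ube2o (2.30) and Ube2h (1.42), the carbonic anhydrase Car2 (2.15) and the catalase Cat (1.97) were higher. Of 13 measured enzymes of red cell glycolysis, Gpi1 was called, 0.37 higher in B6, but not when scaled to total reads (0.20) or to reads outside the erythroid lists (0.33). Among 6 measured globin genes and their chaperone, Hba-a2 was called, with 4312 to 8665 reads in B6 controls and 3 to 7 reads in D2 controls. Hba-a2 has a near-identical copy, Hba-a1, and globins were depleted, so how its reads were divided is uncertain and no fold is given. Over the 5 lists other than glycolysis, 43 genes were called, 23 higher and 20 lower in B6. With values scaled to total reads, which put the median over all genes at -0.18 in the strain comparison, 61 were called, 25 higher and 36 lower. With the D2 groups of the column names 15 of 41 called genes were higher in B6, and without both D2 mice 16 of 40. Counts and medians of each single list are by the labels only, so how each changed with the grouping is not given.

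**Figure D5:**
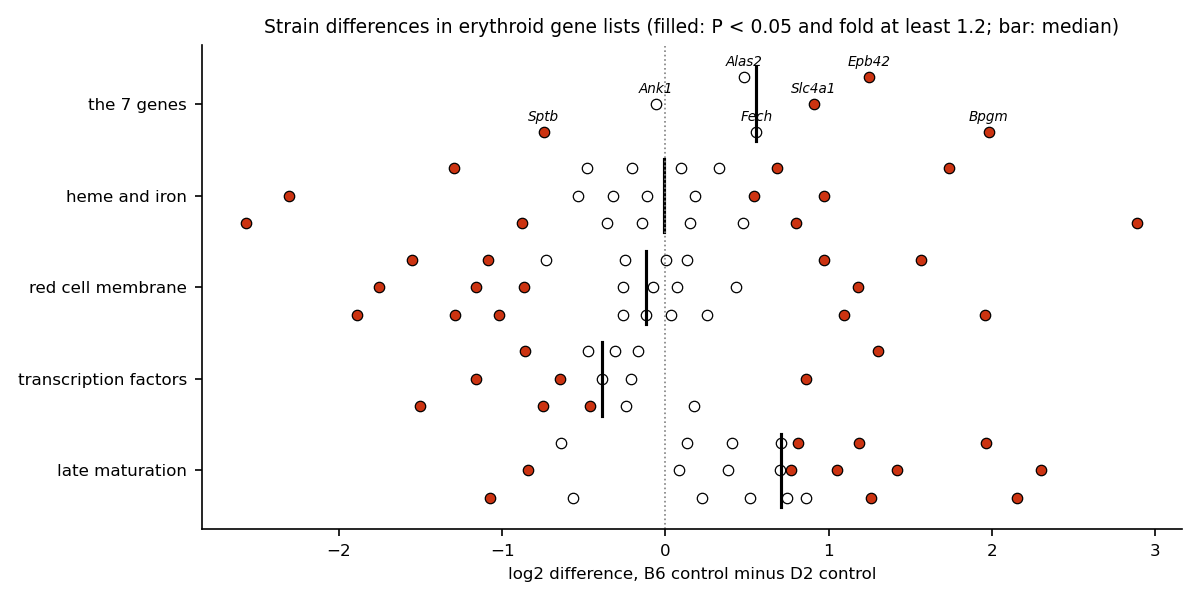
Log2 difference of B6 minus D2 controls on the horizontal axis for the 7 genes and for 4 further lists of erythroid genes on the vertical axis, with 1 point per gene, filled where it was called, and a bar at the median of each list. By the labels, the late maturation genes have a median of 0.71 and the transcription factors one of -0.39. Points within a list are spread vertically only to keep them apart.

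In the stress comparisons few genes of these lists were called. In D2 susceptible mice Cpox, a mitochondrial enzyme of heme synthesis, was 0.62 higher by the labels (unadjusted limma p of 0.0163, adjusted 0.999), but 0.18 with the column names and 0.50 without the 2 mice, where it was not called. Klf3, a Krüppel-like repressor, was 0.33 higher in the same comparison, but 0.02 with the column names, 0.21 without both mice, and 0.25 to 0.30 without D2 control 1 or 2 or susceptible mouse 2 or 3, where it was not called. In B6 resilient mice the erythropoietin receptor Epor was 0.57 higher than in controls, but it was not called without B6 control 2 (0.35) or 5 (0.57), or without resilient mouse 1 (0.52), 2 (0.38) or 3 (0.53). In B6 susceptible mice Bach1 was 0.31 higher, and was not called without susceptible mouse 1 (0.22) or 3 (0.27).

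Of the 13 glycolysis genes, 4 were called higher in B6 susceptible mice against controls: Pkm (0.58), Tpi1 (0.54), Aldoa (0.43) and Gapdh (0.34). The adjusted limma p of each was 0.968. Tpi1 was not called without B6 control 2 (0.41) or susceptible mouse 3 (0.39), nor was Aldoa (0.36 and 0.32), and Gapdh was not called without susceptible mouse 1 (0.24). These enzymes are used by most blood cells, and the list's summed level had a correlation of 0.56 with the members over the 25 mice after removal of group means, lower than the 0.92 to 0.98 of the other erythroid lists.

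Markers of other blood cells were counted in the same fit, and no listed marker was at 0 reads in any mouse. Between B6 and D2 controls by the labels, 26.4% of all genes were called, and 15.5% had an adjusted limma p under 0.05. Of the markers, 7 of 8 B cell genes and 2 of 7 NK cell genes were called higher in B6 controls. Lower there were 6 of 10 platelet genes, 2 of 12 neutrophil genes and 1 of 8 monocyte genes. Of 9 T cell genes, 1 was higher and 2 were lower. At an adjusted limma p under 0.05 there remained 2 B cell, 2 NK cell, 5 platelet, 2 neutrophil and 0 monocyte genes, and 1 T cell gene in each direction. Summed platelet levels ranged from 1752 to 6541 CPM in B6 controls and from 3875 to 14665 CPM in D2 controls. In B6 susceptible mice against controls, where 4.5% of all genes were called, 8 of 10 platelet genes were called higher, with a median of 0.87, and the summed level there ranged from 4244 to 11838 CPM. Gp1bb, a subunit of the platelet receptor for von Willebrand factor, was 0.94 higher with an adjusted limma p of 0.968, and Gp1ba (1.01), Treml1 (0.87) and Gp9 (0.86) had the same adjusted p. Without B6 control 2 none of these 4 was called (0.67, 0.86, 0.59 and 0.57), and without susceptible mouse 1 none was either (0.74, 0.59, 0.78 and 0.75). Treml1 and Gp9 were also not called without B6 control 5 (0.79 for both) or susceptible mouse 3 (0.69 and 0.67), nor was Treml1 without susceptible mouse 5 (0.82). Over the 25 mice, after removal of group means, the members had a correlation of -0.70 with the B cell sum, -0.72 with the T cell sum and 0.46 with the platelet sum. The part of these cells in the results on the members was not tested.

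The same 25 blood samples gave a table of 299 miRNAs, in which 4 of 7 listed erythroid miRNAs were present: miR-144-5p, miR-451a, miR-486a-5p and miR-486b-5p. miR-144 and miR-451 are made from a single erythroid transcript, and miR-451a is processed without Dicer. The mature sequences of these 2 were at hand (RefSeq, GRCm38.p6, chromosome 11, plus strand) and are shown because they mark the same lineage as the members. Capitals mark the seed, bases 2 to 8, and the seeds differ. miR-144-5p lies at 78073010 to 78073032 and miR-451a at 78073186 to 78073207, with 153 bases between them.
miR-144-5p: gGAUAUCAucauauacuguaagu
miR-451a: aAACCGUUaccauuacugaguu

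miR-451a was the more abundant of the pair, at 17.65 to 18.72 log2 CPM over all 25 mice, and was not called in any comparison. Its strain difference was 0.25 with a 95% interval of -0.11 to 0.62. miR-144-5p was at 16.03, 15.16, 15.72, 15.84 and 15.82 in B6 controls. In D2 controls it was at 15.45, 15.28, 15.18, 15.59 and 13.72. It was called higher in B6, by 0.67 ± 0.26, where 25.4% of the 299 miRNAs were called, with an adjusted limma p of 0.0816 and an exact permutation p of 0.0635. It stayed called with the column names and without both D2 mice (0.67 and 0.73). Without D2 control 5, the lowest mouse, it was 0.34 and not called.

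miR-486b-5p was lower in B6 controls, with a difference of -0.42 ± 0.19, at 7.94 to 8.15 against 8.24 to 8.78 in D2 controls, with no overlap, an exact permutation p of 0.00794, the smallest possible, and an adjusted limma p of 0.156. It was not called with the column names (-0.35), without both mice (-0.37), or without any of B6 controls 2 (-0.39), 3 (-0.43) and 4 (-0.41) and D2 controls 2 (-0.37) and 5 (-0.35). The other miR-486 entry, miR-486a-5p, differed by 0.005 between the control groups, with overlapping ranges and an adjusted limma p of 0.985. How reads were divided between the miR-486a-5p and miR-486b-5p entries was not tested. In D2 susceptible mice against controls, where 8.7% of miRNAs were called, miR-486a-5p was 0.37 higher and miR-486b-5p 0.43 higher, with adjusted limma p-values of 0.539 for both. With the column names they were 0.44 and 0.56 higher (unadjusted limma p of 0.015 and 0.0041, adjusted 0.236 and 0.130), and without both mice 0.51 and 0.62 (adjusted limma p of 0.241 and 0.176). By the labels, without susceptible mouse 5, whose values of 9.95 and 9.72 were the highest, the differences were 0.18 and 0.22 and neither was called. Both calls were also lost without D2 control 1, 3 or 4 (0.33 to 0.40) and without susceptible mouse 3 (0.29 and 0.35) or 4 (0.36 and 0.40). In the B6 stress comparisons, none of the 4 was called, where 4.35% (resilient against control), 4.01% (susceptible against control) and 3.01% (susceptible against resilient) of miRNAs were.

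Across the 25 mice, as deviations from group means, Alas2 was compared with each of the 4 miRNAs, with permutation p-values from 1e+05 permutations within groups. For miR-144-5p Pearson's r was 0.11 (permutation p of 0.607) and Spearman's rho 0.25 (permutation p of 0.228). For miR-451a r was -0.28 (permutation p of 0.184) and rho -0.40 (permutation p of 0.0523). miR-486a-5p had an r of 0.12 and a rho of 0.25, and miR-486b-5p an r of 0.08 and a rho of 0.23. After adjustment over the 4 relations the Pearson values were all 0.646 and the lowest Spearman value was 0.209. With the mean of the 7 genes in place of Alas2, given with no test, r was -0.12 for miR-144-5p, -0.35 for miR-451a, 0.11 for miR-486a-5p and 0.08 for miR-486b-5p, so its sign for miR-144-5p was the opposite. Without the 2 mice farthest from the median of Alas2, r was 0.01 for miR-144-5p and -0.36 for miR-451a. None of the relations passed the threshold.

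A further readout was available outside blood. AGO2 immunoprecipitates of pooled bed nucleus of the stria terminalis (BNST) of B6 mice, 3 mice a pool, were sequenced for mRNA in 5 control, 5 resilient and 4 susceptible pools, and 5 of the 7 members were among the 16587 genes measured. Slc4a1 and Epb42 were not in that table. Alas2 was near the detection limit there with 3 to 15 reads a pool, while Sptb had 465 to 3019 and Ank1 520 to 1467 reads. Sptb and Ank1 are also made by neurons, and the source of these transcripts in the pools was not tested.

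In susceptible pools against controls, where 18.9% of genes were called, Ank1 and Bpgm were called. Ank1 was at 7.22, 7.48, 7.51 and 7.25 log2 CPM in susceptible pools and at 6.95, 6.92, 7.22, 6.96 and 7.00 in controls, a difference of 0.35 ± 0.11 with an adjusted limma p of 0.0743 and an exact permutation p of 0.0238. Bpgm was at 4.36, 4.42, 4.26 and 4.21 in susceptible pools and at 4.77, 4.84, 4.42, 4.65 and 4.66 in controls. The groups did not overlap, although the nearest pools of both stood at 4.42, and the difference was -0.36 ± 0.13 with an adjusted limma p of 0.131 and an exact permutation p of 0.0159. In resilient pools against controls, where 17.7% of genes were called, no member was, and Ank1 (0.23) and Bpgm (-0.23) lay between the other 2 groups. Both calls held with each pool left out, and neither passed the adjustment over all genes.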

How the data were processed

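Trunk blood RNA was depleted of globin and ribosomal transcripts and sequenced single-end. The authors aligned reads to GRCm38 with STAR, counted them per Ensembl gene with HTSeq, kept genes with at least 1 CPM in at least 6 blood samples (3 for AGO2 mRNA) and deposited log2 CPM values made with voom. Reads recovered from these values were whole within 0.0001 reads. For AGO2 mRNA the paper also describes an adjustment for experimental cohort with the ComBat method. No cohort term was in the fits of the AGO2 pools here. Neither aligning nor counting was redone, and how D2 alleles align to the B6 reference was not tested. P-values refer to the spread between mice, or between pools, which limma moderates by that of genes of like level.

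The deposited log2 values were fitted with limma 3.58.1 (R 4.3.3), all groups of a table in 1 model, with empirical Bayes moderation, a mean-variance trend and Benjamini-Hochberg adjustment over all genes. Single differences were also tested with two-sided exact permutation tests. The procedure was tested on simulated data. Blood replicate numbers only name mice. In AGO2 pools the 13 same-numbered pairs had correlations of -0.17 to 0.14, so numbers were not used as pairs. Other erythroid and marker genes were named where called, at most 4 a list by smallest p. The planned correlation of miRNAs with the mean of the 7 genes was replaced by that with Alas2, so that no p was given for a score over the members, and is printed as a value. The members and lists were chosen with earlier results of these data known. Gene positions and exon lengths are from GENCODE M21, which held 13054 of the 13084 genes. Figures were drawn with matplotlib 3.10.9. The table of AGO2-bound miRNAs was not used here.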

Additional observations from a re-analysis of the deposited data

Results flagged for a closer look

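Of 70 groups of mice or pools examined for a sample far from the others, 3 passed Dixon's 95% criterion, and chance gives about 1 in 20. miR-144-5p was at 15.12 in B6 susceptible mouse 1, where the other 4 were at 15.93 to 16.13. It was at 13.72 in D2 control mouse 5, where the others were at 15.18 to 15.59. Ank1 was at 7.22 in control pool 3 of the BNST AGO2 mRNA, where the others were at 6.92 to 7.00.

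The difference between the strains in the effect of CSDS in susceptible mice was called for 9 named genes of the lists. Each had an unadjusted limma p under 0.05 and an adjusted limma p of 0.918. Of all 13084 genes, 5.37% were called for it, and 0 had an adjusted limma p under 0.05. At most 4 genes a list were named, while 8 of 10 platelet, 4 of 13 glycolysis and 1 of 12 neutrophil genes were called. The 9 named differences, B6 effect minus D2 effect on the log2 scale by the labels, were above 0, as were 598 of all 703 genes called for this difference. Among the glycolysis enzymes they were 0.89 for Pkm, 0.84 for Tpi1, 0.68 for Aldoa and 0.48 for Gapdh. Among platelet genes they were 1.44 for Gp1ba, 1.36 for Itgb3, 1.28 for Gp9 and 1.203 for Gp1bb, and for Cxcr2, a neutrophil receptor, the difference was 1.00. None of the 7 erythroid members was among them. With the column names or without both D2 mice, Cxcr2 was at 0.72 and 0.91 and no longer called, and the other 8 stayed called. Leaving out 1 mouse took the call from Cxcr2 in 10 of 20 cases (0.60 without B6 susceptible mouse 1), from Gp9 without B6 control 2 (1.00), D2 control 3 (1.07) or D2 susceptible mouse 5 (0.99), and from Gp1bb without B6 control 2 (0.93), B6 susceptible mouse 1 (1.00) or 3 (1.06), D2 control 3 (0.95) or D2 susceptible mouse 5 (0.97).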

How the results depend on the processing

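Members called in the 4 stress comparisons and in the difference of effects between strains numbered 0 under every scaling, pseudocount, filter, weighting, prefix term and grouping tried and with each mouse left out. The sign of uncalled stress differences was less fixed: 31 of 35 changed sign under some alternative, in 108 of 833 refits. Between control mice, 3 to 5 members were called under the alternatives, and Bpgm and Epb42 were called in all of them. With a mouse left out, 2 or 3 members were called, and 2 without D2 control 3 or 4. The prefix term could not be fitted for the strain comparison.

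Erythroid miRNAs called in D2 susceptible mice, 2 by the labels, numbered 0 when scaled to total reads, after quantile normalization or with only the groups compared, 1 without a mean-variance trend, and 0 to 2 with a mouse left out. Between strains, also 2, they numbered 0 after quantile normalization, 1 with only the groups compared, 1 with the column names, 1 without both D2 mice, and 0 to 3 with a mouse left out. The cause was not tested.

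In AGO2 resilient pools 0 members were called, and 0 to 2 with a pool left out (2 without control pool 3 or resilient pool 3). With the replicate number as a replicate block, 0 members were called in resilient and 2 in susceptible pools, as without it, and 3 of 14 pools correlated best with their own number.

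Each blood comparison rests on 5 mice a group. The fewest reads of a member in blood were 1392, and Alas2 had 3 to 15 reads in AGO2 pools.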
